A study of Mus musculus with 18 samples.

Results

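The transcription factor p53 and 6 genes that it is known to switch on were followed through embryonic stem cell differentiation: Trp53, which encodes p53, and Mdm2, Pmaip1, Bbc3, Bax, Aen and Ccng1. The genes were taken by exact gene name, 7 of the 54429 names in the count table of the FLAG-EED cells and 7 of the 54352 in that of the wildtype cells. All 7 were in both tables and passed the filter on low counts, with between 358 and 22208 read pairs in any library. The study asks how EED, a core subunit of the Polycomb complex PRC2, acts on PRC2 targeting and differentiation when CBP and P300 acetylate it. The series holds 18 RNA-seq libraries of mouse cells in 9 groups of 2. In 8 of these groups the cells carry a FLAG tag knocked in at EED, either on the wildtype protein (FLAG-WT) or on a protein with the K19R substitution (K19R). Each of these lines was measured as embryonic stem cells (mESCs, day 0), kept undifferentiated with leukemia inhibitory factor (LIF) and the 2i inhibitors PD0325901 and CHIR99021, which block MEK and GSK3. The same lines were measured on days 2, 6 and 10 as embryoid bodies, which are aggregates that differentiate in suspension on a shaker without LIF and 2i. The last group, labelled Wildtype mESC, is not described as tagged and was grown on gelatin with LIF alone. The number of clones behind each line and the relation of the wildtype cells to the tagged ones are not given in the sources used. The labels do not tell whether a group's 2 libraries are separate cultures. The p-values and SEs rest on the spread between libraries of the same group alone, which may be technical. That spread was pooled over the groups of a fit and partly over genes, so an SE is not the spread of the groups compared. Groups were not alike in it: the chi-square per degree of freedom between a group's 2 libraries was 2.28 in FLAG-WT day 0 and 11.187 in FLAG-WT day 10.

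In unstressed cells p53 is made and destroyed continuously, because Mdm2, itself a p53 target, marks the p53 protein for degradation and so closes a negative feedback loop. DNA damage and other stresses break this loop by stabilizing the protein, which then raises its targets, and these either stop the cell cycle or open the way to apoptosis at the mitochondrion. Among the targets here, Pmaip1 (Noxa) and Bbc3 (Puma) are BH3-only proteins that bind and neutralize the pro-survival members of the BCL-2 family. Bax is the effector that perforates the outer mitochondrial membrane, Aen is a nuclease that takes part in apoptosis after DNA damage, and Ccng1 (cyclin G1) works with a phosphatase that acts on Mdm2. Mouse embryonic stem cells are known for abundant p53 that falls as they differentiate. The libraries measured RNA, so p53 protein, its modifications and cell death were not measured.

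On GRCm38, Trp53 lies at chr11:69580359-69591873 and Ccng1 at chr11:40748552-40755311, and Mdm2 lies at chr10:117688875-117710758. Bbc3 (chr7:16308393-16318205), Bax (chr7:45461697-45466898) and Aen (chr7:78895854-78911209) share chromosome 7. Counts were summed over the exons of each gene, so untranslated exons were included. A second annotated gene, Gm45808, shares 192 exon bases with Bax and held 3 counts in all libraries together. The processed pseudogene Trp53-ps held 113 counts against 173098 for Trp53.

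Of the 7 genes, 6 matched the RefSeq promoter table (GRCm38.p6, 250 bases before to 50 after each annotated start, 300 in all). They were searched for the p53 half-site, the degenerate motif of 10 bases that p53 binds in pairs. The half-site reads the same on both strands, so 1 search covers them. A full element was taken as 2 half-sites up to 13 bases apart, so that each full element also counts as half-sites. At least 1 half-site was present for 5 of the 6 matched genes, against 2582 of all 27025 genes (9.55%). No match was found in the windows of Bbc3. A full element was present in none of the 9 windows of these 6 genes. It was present in 24 of all 32851 windows (0.0731%), or 20 of 27025 genes. Among them was the upstream window of Cdkn1a, the cell cycle inhibitor p21 and the textbook p53 target. The window of the other annotated Cdkn1a start held no match. Only exact matches inside the windows were counted, so a gene without a match may still have an element elsewhere or with a differing letter. In the upstream Cdkn1a window, the 10 bases right after the last half-site differ from the motif only in their first letter and were not counted. A match is a description of the letters, not a binding site. In Aen the match lies 10 bases after the first annotated start. The upstream stretches of 4 members are shown because their transcripts moved in 2 pairs below, Mdm2 with Ccng1 and Trp53 with Bax, beside that of Cdkn1a. They are given 5′ to 3′ on the strand of the gene, with the half-sites in capitals.
Mdm2, chr10:117710759-117711008, minus strand: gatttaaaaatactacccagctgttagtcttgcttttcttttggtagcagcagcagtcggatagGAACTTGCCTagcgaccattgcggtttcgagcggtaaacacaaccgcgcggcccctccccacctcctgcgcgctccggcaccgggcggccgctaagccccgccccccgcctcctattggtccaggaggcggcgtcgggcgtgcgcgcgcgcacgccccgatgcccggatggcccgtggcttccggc
Ccng1, chr11:40755312-40755536, minus strand: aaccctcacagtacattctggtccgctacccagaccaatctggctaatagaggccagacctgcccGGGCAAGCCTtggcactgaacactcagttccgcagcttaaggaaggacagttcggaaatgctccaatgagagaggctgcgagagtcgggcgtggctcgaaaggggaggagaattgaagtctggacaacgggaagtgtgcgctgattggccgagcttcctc
Trp53, chr11:69580109-69580358, plus strand: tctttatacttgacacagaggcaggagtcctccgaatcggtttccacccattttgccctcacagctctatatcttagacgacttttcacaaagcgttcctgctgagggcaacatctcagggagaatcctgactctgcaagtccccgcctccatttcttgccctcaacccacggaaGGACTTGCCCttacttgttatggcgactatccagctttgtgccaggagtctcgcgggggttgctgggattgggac
Bax, chr7:45466899-45467148, minus strand: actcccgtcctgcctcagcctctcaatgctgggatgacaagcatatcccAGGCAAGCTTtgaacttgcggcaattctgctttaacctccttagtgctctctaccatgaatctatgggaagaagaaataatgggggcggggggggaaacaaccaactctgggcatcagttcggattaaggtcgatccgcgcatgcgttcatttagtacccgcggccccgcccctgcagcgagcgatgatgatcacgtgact
Cdkn1a, chr17:29090729-29090975, plus strand: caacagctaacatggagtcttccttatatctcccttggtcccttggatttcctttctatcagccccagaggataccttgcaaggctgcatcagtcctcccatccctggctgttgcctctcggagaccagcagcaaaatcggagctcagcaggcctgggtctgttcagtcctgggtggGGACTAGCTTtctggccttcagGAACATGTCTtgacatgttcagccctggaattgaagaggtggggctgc

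The 16 FLAG-EED libraries held 20158077 to 28917558 counted read pairs each, and the Wildtype mESC libraries 14190166 and 37375083. Gene levels are given in CPM, the usual unit of counts relative to library depth, with depth adjusted by TMM, which sets the libraries on 1 scale from the bulk of their genes. Changes are log2 values from edgeR's quasi-likelihood test, and a gene was called when its Benjamini-Hochberg adjusted p over all genes was under 0.05. Eed itself, the targeted gene, was at 177 to 201 CPM in the 4 FLAG-EED libraries of day 0 and at 39.5 to 50.6 CPM in those of days 6 and 10, and gene counts do not show the substitution. The summed level of 8 pluripotent stem cell markers was 5241 to 5500.2 CPM on day 0 in the FLAG-EED lines, and 486 to 528 CPM in the FLAG-WT libraries of days 6 and 10 against 812 to 961 CPM in the K19R ones. The sum of 8 endoderm markers was 26113.5 and 26998.5 CPM in FLAG-WT embryoid bodies on day 10 and 15785 and 14359 CPM in K19R ones, and Afp, an endoderm gene, made up most of it. Replicate 2 of FLAG-WT day 0 stood apart with 55.6 CPM of Afp against 1.79 CPM in replicate 1, so comparisons with that group were repeated without it, and calls that changed are given. In bulk RNA, fewer cells of a type and less RNA per cell cannot be told apart. None of the 8 endoderm and 8 pluripotency markers was at 0 in both libraries of any group.

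The line comparison sets K19R against FLAG-WT at each stage. With the number of clones not given, the substitution and differences between clones cannot be told apart in it. Trp53 RNA was higher in K19R than in FLAG-WT embryoid bodies on days 2, 6 and 10, by up to 0.87 ± 0.07 (log2, SE) on day 10. The BH3-only gene Pmaip1 was lower on all 3 days, by 2.17 ± 0.10 on day 10, and Bbc3, also BH3-only, was higher on day 2 and lower on days 6 and 10. Mdm2 was lower in K19R on day 10, by 0.73 ± 0.07. Of the 7 genes, 1 was called higher and 1 lower on day 0, 4 and 1 on day 2, 3 and 2 on day 6, and 2 and 5 on day 10. Over all 19092 genes tested, 10.5% were called on day 0 (5.51% higher, 4.98% lower), 41.8% on day 2 (20% and 21.8%), 58.5% on day 6 (28.4% and 30.1%) and 58.4% on day 10 (33.2% and 25.2%). Calls were thus common from day 2 on, and counts of members are to be read against those shares. The median log2 difference of the 7 was -0.04 on day 0, 0.20 on day 2, 0.15 on day 6 and -0.45 on day 10, against -0.0024, 0, 0.02 and 0.13 over all genes. Without FLAG-WT day 0 replicate 2, Mdm2 (adjusted p = 0.182, edgeR) and Pmaip1 (0.055) lost their day 0 calls, and the fit then called 845 genes in all in place of 2003.

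The scale matters for the late days. With library totals in place of TMM, the median of all genes in K19R against FLAG-WT moved from 0.02 to 0.38 on day 6 and from 0.13 to 0.44 on day 10. The share of called genes that were higher then moved from 48.6% to 72.9% and from 56.9% to 77.0%. The members called became 5 higher and 2 lower on day 6, and 2 higher and 3 lower on day 10. Trp53, Pmaip1 and Bbc3 passed in the same direction on days 6 and 10 under that scaling, but Bbc3 on day 6 only narrowly (-0.19, adjusted p = 0.0476, in place of -0.54), and Trp53 on day 6 stood at 1.02 in place of 0.66. Taken relative to the median gene, the day 10 differences were 0.74 under both scalings for Trp53, -2.30 for Pmaip1 and -0.86 for Mdm2. Those of Ccng1 were -0.30 under both, and those of Bax 0.07. A change of scaling moves every gene and the median by nearly the same amount. The match between scalings was thus fixed in advance and is not a test. The values below are on the TMM scale.

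**Figure D1:**
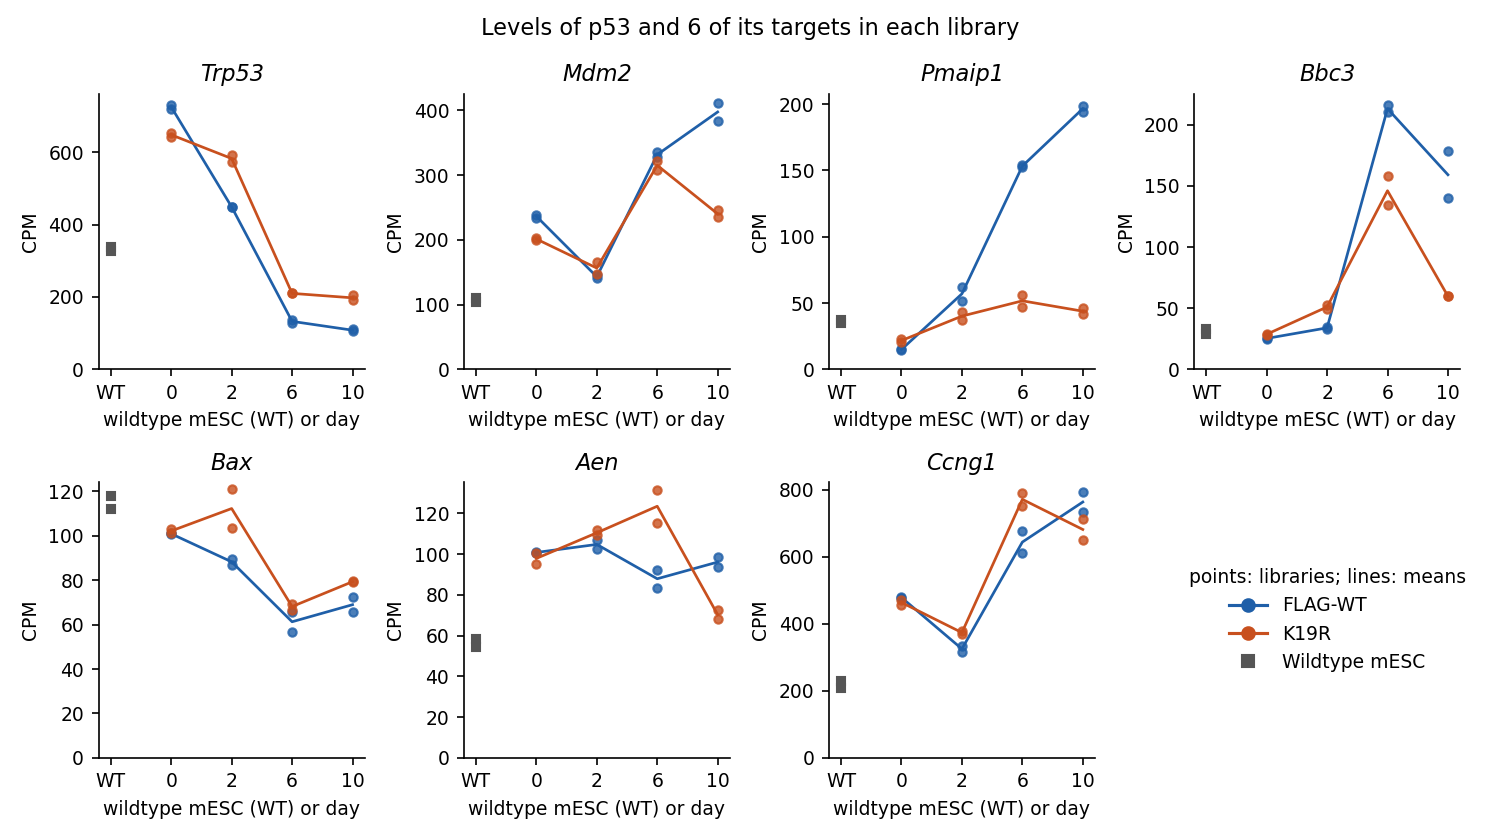
CPM of the 7 genes in each library against day, with lines through the means of FLAG-WT (blue) and K19R (orange) and the Wildtype mESC libraries (grey squares) at the left. Trp53 falls in both lines and stays higher in K19R after day 0, while Pmaip1 reaches 194 and 199 CPM in FLAG-WT on day 10 and 41.7 and 45.9 CPM in K19R.

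Per kilobase of exon, Trp53 was the most abundant of the 7 in mESCs, and it fell through differentiation. FLAG-WT libraries held 731 and 719 CPM on day 0, 449 and 448 on day 2, 138 and 127 on day 6, and 106 and 110.4 on day 10. In K19R the values were 642 and 653 CPM on day 0, 572 and 593 on day 2, 209.6 and 209.95 on day 6, and 204 and 190.5 on day 10. No 2 groups overlapped: both FLAG-WT values were above both K19R values on day 0 and below them on each later day. The FLAG-WT change from day 0 was -0.69 ± 0.06 (log2) by day 2, -2.45 ± 0.07 by day 6 and -2.745 ± 0.07 by day 10. In K19R it was -0.15 ± 0.06 by day 2, -1.63 ± 0.07 by day 6 and -1.71 ± 0.07 by day 10. The day 2 value of K19R was called narrowly (adjusted p = 0.0434, edgeR) and lost its call in 8 of 10 alternative fits, with adjusted p up to 0.189. The difference between the lines was -0.16 ± 0.06 on day 0 (adjusted p = 0.111), 0.38 ± 0.06 on day 2 (3.02e-05), 0.66 ± 0.07 on day 6 (2.76e-09) and 0.87 ± 0.07 on day 10 (3.16e-11). Tested as a change of that difference since day 0, the shift was 0.54 ± 0.09 by day 2, 0.83 ± 0.09 by day 6 and 1.03 ± 0.09 by day 10, each called. These 3 tests share the day 0 libraries. The day 0 difference passed with library totals (adjusted p = 0.0471) and in a fit of only those groups (0.0109). Pluripotency markers moved with it late but not on day 2: of 8, 5 were lower in K19R on day 2, and 6 were higher and 2 lower on days 6 and 10 (6 and 0 on day 10 with library totals). Pou5f1, a core stem cell factor, was at 6.80 and 7.84 CPM in FLAG-WT on day 10 and at 98.9 and 81.6 CPM in K19R. Their part in the Trp53 result was not tested.

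Mdm2, the ligase that restrains p53, dipped on day 2 in both lines and then rose. Replicates of FLAG-WT gave 234 and 238 CPM on day 0, 140.4 and 146 on day 2, 336 and 327 on day 6, and 411 and 384 on day 10. K19R replicates gave 203 and 199.6 CPM on day 0, 165 and 147 on day 2, 308 and 322 on day 6, and 245 and 235 on day 10. Up to day 6 the lines were close, and on day 10 both FLAG-WT libraries were above every other library while K19R had come back down. The rise from day 0 to day 10 was 0.75 ± 0.07 in FLAG-WT and 0.25 ± 0.07 in K19R, both called. K19R was below FLAG-WT by 0.73 ± 0.07 on day 10 (adjusted p = 8.28e-10, edgeR). With library totals the FLAG-WT rise to day 10 was 0.35 and the day 10 line difference -0.43, both still called. The day 0 difference of -0.23 ± 0.07 (adjusted p = 0.0259) lost its call when any 1 of the 4 libraries was left out, with adjusted p from 0.114 to 0.182. On days 2 and 6 the differences, 0.13 ± 0.07 and -0.07 ± 0.07, did not pass, and the day 6 value became 0.29 ± 0.07, and called, with library totals. The change of the difference since day 0 was 0.36 ± 0.10 by day 2, 0.16 ± 0.09 by day 6 (adjusted p = 0.18; 0.55 and called with library totals) and -0.50 ± 0.09 by day 10. The last lost its call with library totals (-0.17, adjusted p = 0.141).

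The level of Mdm2 was set against that of Trp53 within each library, both per kilobase of exon. In all 4 day 0 libraries the ratio lay between 0.243 and 0.264, and it was 0.247 and 0.268 in Wildtype mESCs. On day 2 it was 0.249 and 0.259 in FLAG-WT and 0.230 and 0.198 in K19R. It then climbed in FLAG-WT to 1.94 and 2.05 on day 6 and 3.09 and 2.77 on day 10. K19R stopped lower, at 1.17 and 1.22 on day 6 and 0.955 and 0.981 on day 10. The lines did not overlap on days 6 and 10, and no test of the ratio was run. This ratio does not depend on the scaling between libraries.

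**Figure D2:**
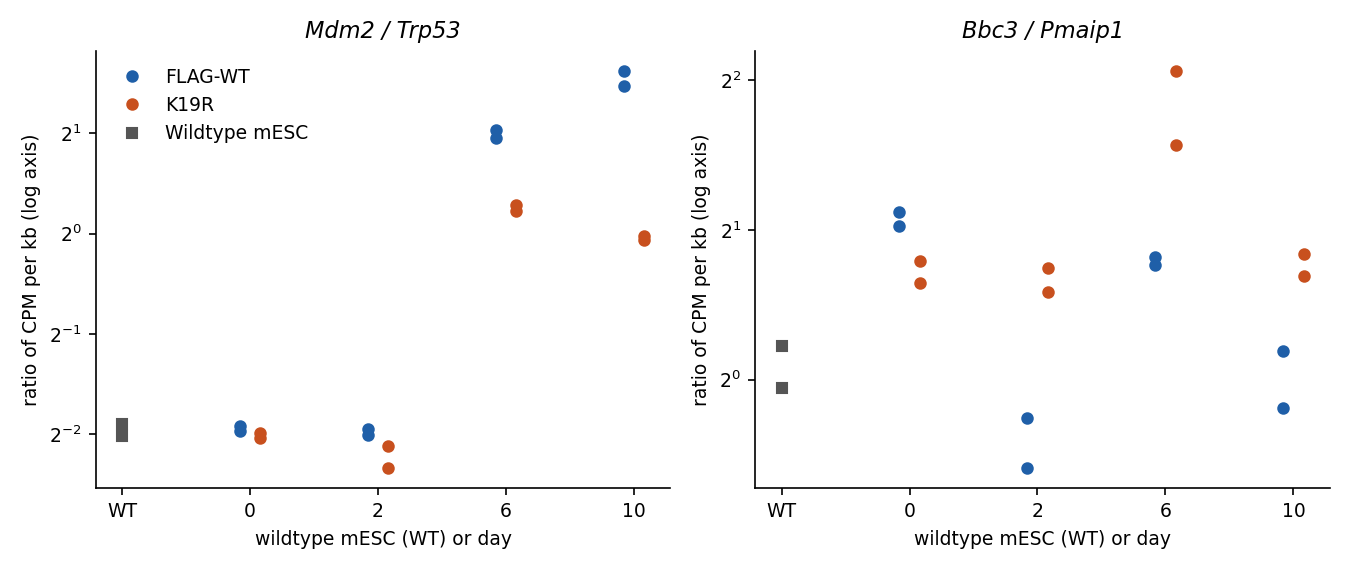
Ratio of Mdm2 to Trp53 (left) and of Bbc3 to Pmaip1 (right) in CPM per kilobase of exon, 1 point per library, on a log axis, by day and line. The Mdm2 to Trp53 ratio lies between 0.198 and 0.268 in mESCs and on day 2 in every line, and separates into 1.94 to 3.09 in FLAG-WT and 0.955 to 1.22 in K19R on days 6 and 10.

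Pmaip1, which lies on chromosome 18, gave the widest range of the 7, with group means 13.1-fold apart. In FLAG-WT it climbed at each step, from 15.6 and 14.3 CPM on day 0 to 51.6 and 62.2 on day 2, 154 and 152 on day 6, and 199 and 194 on day 10. K19R libraries started higher, at 20.8 and 22.6 CPM, and stayed between 36.8 and 56.3 CPM afterwards: 36.8 and 43.4 on day 2, 56.3 and 47.0 on day 6, and 41.7 and 45.9 on day 10. The lines did not overlap on any day, and their order turned between day 0 and day 2. The gain since day 0 was 1.93 ± 0.11, 3.35 ± 0.11 and 3.71 ± 0.11 (log2) on days 2, 6 and 10 in FLAG-WT, and 0.89 ± 0.10, 1.25 ± 0.10 and 1.02 ± 0.10 in K19R. Against FLAG-WT, K19R stood at 0.53 ± 0.11 on day 0 (adjusted p = 0.00267), -0.51 ± 0.10 on day 2 (0.000101), -1.57 ± 0.09 on day 6 (1.61e-13) and -2.17 ± 0.10 on day 10 (6.16e-16). Without FLAG-WT day 0 replicate 2 the day 0 value was 0.47 with an adjusted p of 0.055. The later calls held in every alternative fit. The change of the difference since day 0 was -1.04 ± 0.15 by day 2, -2.10 ± 0.15 by day 6 and -2.70 ± 0.15 by day 10, the largest shift among the 7 on each day. Endoderm markers moved with it on days 2 and 6, when 7 of 8 were lower in K19R, with sums of 546 and 543 CPM in FLAG-WT against 68.3 and 71.0 CPM in K19R on day 2. On day 0, when Pmaip1 was higher in K19R, 5 of the 8 were called lower. Their sums were then 10.8 and 84.0 CPM in FLAG-WT replicates 1 and 2, and 7.87 and 7.95 CPM in K19R. The day 0 marker calls thus lean on FLAG-WT replicate 2, and they were not read without it. On day 10, when Pmaip1 differed most, 2 of the 8 were higher and 3 lower, or 4 and 1 with library totals, and Gata4, an endoderm regulator, was at 431 and 377 CPM in FLAG-WT and at 443 and 475 CPM in K19R. The part of these cells in the result was not tested.

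Bbc3 rose late and peaked on day 6 in both lines. FLAG-WT gave 25.6 and 24.9 CPM on day 0, 34.6 and 33.2 on day 2, 210.3 and 216 on day 6, and 139.9 and 178 on day 10. In K19R it was at 28.9 and 28.4 CPM on day 0, 49.7 and 52.3 on day 2, 134 and 158 on day 6, and 60.0 and 59.6 on day 10. K19R was thus above FLAG-WT early and below it late, with no overlap on any day. From day 0 to day 6 Bbc3 rose by 3.08 ± 0.10 (log2) in FLAG-WT and 2.35 ± 0.09 in K19R, and from day 0 to day 10 by 2.66 ± 0.10 and 1.06 ± 0.10. The line difference was 0.18 ± 0.10 on day 0 (adjusted p = 0.288), 0.59 ± 0.09 on day 2 (1.23e-05), -0.54 ± 0.09 on day 6 (4.64e-06) and -1.41 ± 0.09 on day 10 (7.55e-13). As a change since day 0 it was 0.41 ± 0.14 by day 2, -0.72 ± 0.13 by day 6 and -1.59 ± 0.14 by day 10, all called. With library totals the day 6 line difference shrank to -0.19 (adjusted p = 0.0476) and its change since day 0 to -0.34 (0.0263). The day 2 shift lost its call in 6 of 14 alternative fits, each of them leaving out 1 library, with adjusted p up to 0.104.

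Pmaip1 and Bbc3, both BH3-only targets, ran together over the 16 FLAG-EED libraries (Pearson correlation of log2 CPM 0.85), but their ratio changed with day and line. Per kilobase of exon, Bbc3 was 2.04 and 2.17 times Pmaip1 in FLAG-WT on day 0, 0.836 and 0.664 times on day 2, 1.70 and 1.77 times on day 6, and 0.877 and 1.14 times on day 10. In K19R the ratio was 1.73 and 1.56 on day 0, 1.68 and 1.502 on day 2, 2.97 and 4.19 on day 6, and 1.79 and 1.62 on day 10. It was higher in K19R than in FLAG-WT on days 2, 6 and 10, without overlap, and lower on day 0. Both genes were nevertheless below FLAG-WT in K19R on days 6 and 10.

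Bax, the pore former, was the steadiest in level, with group means 1.88-fold apart at most, and its course resembled that of Trp53. Libraries of FLAG-WT held 101 and 100.7 CPM on day 0, 89.7 and 86.8 on day 2, 65.8 and 56.8 on day 6, and 65.5 and 72.5 on day 10. Those of K19R held 103 and 101 CPM on day 0, 104 and 121 on day 2, 69.5 and 66.8 on day 6, and 79.4 and 79.2 on day 10. From day 0 to day 10 Bax fell by 0.55 ± 0.08 (log2) in FLAG-WT and by 0.37 ± 0.08 in K19R, both called, and the FLAG-WT value was -0.95 with library totals. It fell by 0.19 ± 0.08 in FLAG-WT by day 2, a call lost in 6 of 10 alternative fits (adjusted p up to 0.204). K19R was higher by 0.35 ± 0.08 on day 2 (adjusted p = 0.000686, edgeR). The day 10 value, 0.20 ± 0.08 (adjusted p = 0.0356), was lost in 6 of 10 alternative fits, with adjusted p up to 0.259, and was 0.51 with library totals. On day 6 it was 0.15 ± 0.08 (adjusted p = 0.116), and 0.51 and called with library totals. The change of the difference since day 0 was called for day 2 (0.33 ± 0.11, adjusted p = 0.0266), where 7 of 14 alternative fits lost it. For days 6 and 10 it was 0.13 ± 0.11 and 0.18 ± 0.11, and 0.52 and 0.51, both called, with library totals.

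Aen rose and then fell in K19R, and its course in FLAG-WT depended on the scaling. FLAG-WT libraries stayed between 83.6 and 107 CPM throughout, with 101 and 100.4 on day 0, 107 and 103 on day 2, 92.3 and 83.6 on day 6, and 93.8 and 98.4 on day 10. K19R libraries went from 100.6 and 95.2 CPM on day 0 to 112 and 109 on day 2 and 115 and 132 on day 6, and then down to 72.6 and 67.9 on day 10. Against day 0, Aen rose by 0.34 ± 0.07 (log2) by day 6 in K19R and was lower by 0.48 ± 0.07 on day 10, while its rise of 0.17 ± 0.07 by day 2 lost its call in 7 of 10 alternative fits (adjusted p up to 0.233). In FLAG-WT the day 6 change was -0.20 ± 0.07 (adjusted p = 0.0179), lost in 3 of 10 alternative fits, and on day 10 it was -0.07 ± 0.07 (adjusted p = 0.397). With library totals these were -0.58 (6.39e-08) and -0.47 (1.33e-06). K19R was above FLAG-WT by 0.49 ± 0.07 on day 6 (adjusted p = 2.2e-06) and below it by 0.45 ± 0.07 on day 10 (1.08e-05). Under library totals the day 6 difference was 0.85, and the day 10 difference was -0.15 with an adjusted p of 0.073. On days 0 and 2 the differences, -0.04 ± 0.07 and 0.08 ± 0.07, did not pass. Since day 0 the difference changed by 0.53 ± 0.10 by day 6 and by -0.41 ± 0.10 by day 10. With library totals these were 0.92 and -0.08, the latter no longer called (adjusted p = 0.532).

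Per kilobase of exon, Ccng1 was the most abundant of the 7 on days 6 and 10 in both lines, and it followed the course of Mdm2. In FLAG-WT it stood at 479 and 478 CPM on day 0, 317 and 333 on day 2, 677 and 611 on day 6, and 794 and 733 on day 10. K19R gave 472 and 456 CPM on day 0, 378 and 369 on day 2, 753 and 790.3 on day 6, and 651 and 712 on day 10. On each day the 2 lines were separate but close. It rose by 0.67 ± 0.07 (log2) from day 0 to day 10 in FLAG-WT and by 0.56 ± 0.07 in K19R, after changes by day 2 of -0.56 ± 0.07 and -0.31 ± 0.07. The FLAG-WT rise by day 6, 0.43 ± 0.07, became 0.05 with library totals (adjusted p = 0.511), and that of Mdm2, 0.49 ± 0.07, became 0.11 (0.138). The FLAG-WT rise of Ccng1 by day 10 became 0.27, still called. Line differences were small: -0.05 ± 0.07 on day 0 (adjusted p = 0.762), 0.20 ± 0.07 on day 2 (adjusted p = 0.0233), 0.26 ± 0.07 on day 6 (0.00232) and -0.17 ± 0.07 on day 10 (0.0463). The day 2 call was lost in 3 of 10 alternative fits and the day 6 call without FLAG-WT day 6 replicate 2 (0.18, adjusted p = 0.0851). The day 10 call was lost in 6 of 10. Under library totals the day 6 and day 10 differences were 0.62 and 0.14 (adjusted p = 0.0707). Of the changes of the difference since day 0, that to day 6 was called (0.31 ± 0.10, adjusted p = 0.0133; 0.69 with library totals) and was lost in 3 of 14 alternative fits.

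**Figure D3:**
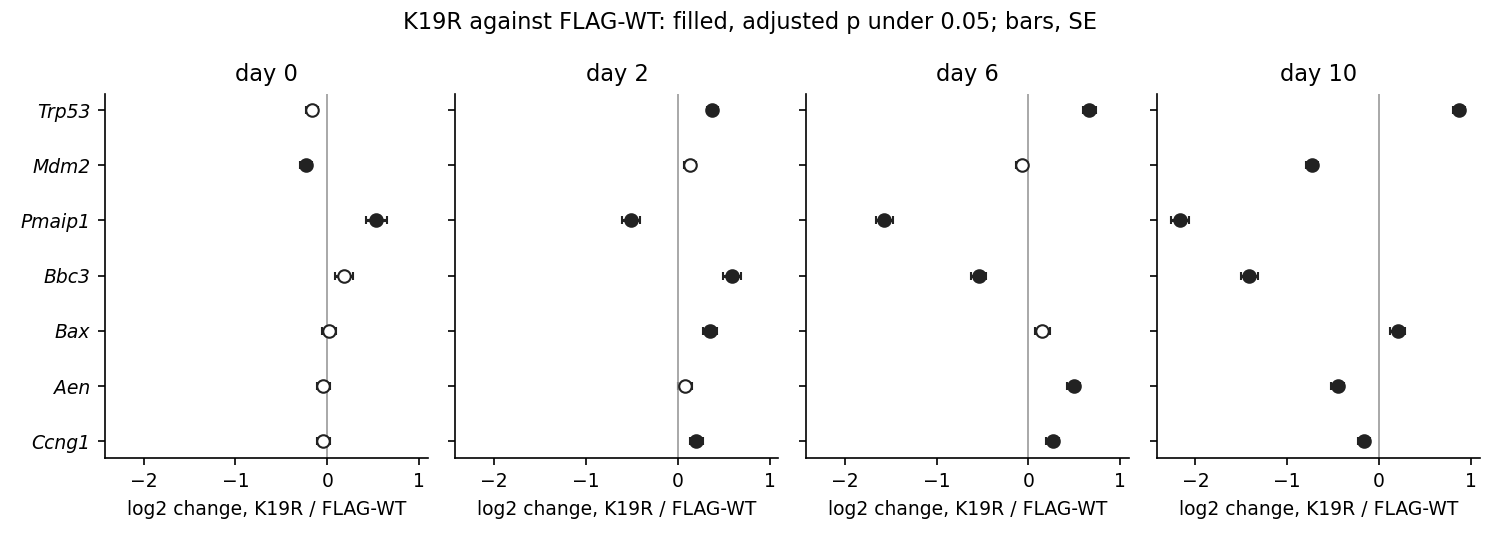
Log2 difference between K19R and FLAG-WT for each gene on days 0, 2, 6 and 10, with bars of 1 SE. Filled points passed an adjusted p of 0.05; Trp53 moves to the right from -0.16 on day 0 to 0.87 on day 10 while Pmaip1 moves from 0.53 to -2.17.

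Against day 0, 2 of the 7 genes rose and 4 fell in FLAG-WT by day 2, 4 rose and 3 fell by day 6, and 4 rose and 2 fell by day 10. In K19R the counts were 3 and 3, 5 and 2, and 4 and 3. Over all genes, 56.1% were called in FLAG-WT by day 2 (28.5% higher, 27.6% lower), 76.1% by day 6 (37.0%, 39.1%) and 77.9% by day 10 (37.0%, 40.9%). In K19R 56.4% were called by day 2 (28.5%, 27.9%), 72.3% by day 6 (37.1%, 35.2%) and 73.9% by day 10 (38.1%, 35.8%). With library totals the share of FLAG-WT calls that were higher went from 48.7% to 37.2% by day 6 and from 47.5% to 36.8% by day 10, and the members called by day 6 became 2 higher and 3 lower. For the change of the line difference since day 0, 4 genes were called upward and 1 downward by day 2, 3 and 2 by day 6, and 1 and 4 by day 10. The shares over all genes were 27.1% (12.7% upward, 14.4% downward), 44.5% (22.1%, 22.4%) and 45.0% (26.1%, 18.8%). Under library totals 5 members were called upward and 2 downward by day 6, and 2 and 2 by day 10. Upward calls over all genes then made up 76.9% in place of 49.7% by day 6 and 80.3% in place of 58.1% by day 10. Without FLAG-WT day 0 replicate 2 the members called were 5, 6 and 6 in FLAG-WT, and 3, 5 and 5 for the change of the line difference.

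Across the 16 FLAG-EED libraries the members fell into a few courses. The libraries share 8 groups, so the correlations of log2 CPM are descriptions without a test. Mdm2 and Ccng1 ran together (Pearson r = 0.93), as did Trp53 and Bax (0.91) and Pmaip1 and Bbc3 (0.85). Trp53 ran against Bbc3 (-0.91), Pmaip1 (-0.88), Ccng1 and Mdm2 (both -0.79). Aen had no correlation beyond 0.33 with any other member. Over all genes tested, the 3 nearest to each member by the same measure were then read. For Trp53 they were Exosc5 (r = 0.99), Hsd17b14 (0.99) and Smpd4 (0.99). Those of Mdm2 included Plk2 (0.98), a p53 target kinase, and Limch1 (0.98). Nearest to Pmaip1 were Tmem170 (0.97), Lmtk2 (0.96) and Ube2f (0.96), and to Bbc3 Pank4 (0.99), Sh2d3c (0.99) and Srebf2 (0.99). Bax had Upp1, Ccdc86 and Nif3l1 (all 0.97), and Aen had Fubp1 (0.93), Rgs10 (0.90) and Avil (0.89). Ccng1 had Phlda3 (0.99), a p53 target that restrains AKT, with Sema3b (0.98) and C1qtnf6 (0.98). By rank correlation, 8 of the 21 nearest genes were still among the 20 nearest.

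In Wildtype mESCs, which are not described as tagged and were grown without 2i, all 7 genes were called against FLAG-WT mESCs, 3 higher and 4 lower. Trp53 was at 337 and 326 CPM in Wildtype mESCs, below every FLAG-EED library of days 0 and 2, a difference of -1.13 ± 0.06 (log2). Mdm2, at 104 and 109.8 CPM, was lower by 1.14 ± 0.07, Ccng1, at 209 and 231 CPM, by 1.12 ± 0.07, and Aen, at 58.2 and 54.5 CPM, by 0.84 ± 0.07. Pmaip1, at 35.1 and 37.5 CPM, was higher by 1.29 ± 0.11. Bbc3 (33.0 and 29.0 CPM, 0.28 ± 0.10) and Bax (118 and 112 CPM, 0.19 ± 0.08) were called narrowly, with adjusted p of 0.0178 and 0.0335, and lost the call in 3 and 5 of 10 alternative fits. Of 19296 genes tested here, 64.9% were called (32.4% higher, 32.5% lower). Without FLAG-WT day 0 replicate 2, Bbc3 and Bax were the members that lost their call (adjusted p = 0.0778 and 0.114). Tag, medium, counting version and preparation cannot be told apart in this comparison, and fibroblast markers stood at 117 and 109 CPM in sum in Wildtype mESCs against 11.1 and 11.9 CPM in FLAG-WT, with 5 of 5 tested called higher.

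The order of the 9 group means set the members apart. Trp53 and Mdm2 were highest at opposite ends of the FLAG-WT course, day 0 for Trp53 and day 10 for Mdm2, and Wildtype mESCs were lowest for Mdm2, Aen and Ccng1. In Trp53 no neighbours in that order overlapped. In Mdm2, K19R day 10 overlapped FLAG-WT day 0. In Pmaip1, FLAG-WT day 2 overlapped K19R day 6, and K19R day 10, K19R day 2 and Wildtype mESC overlapped each in turn. FLAG-WT day 10 and K19R day 6 overlapped in Bbc3. Bax overlapped between Wildtype mESC and K19R day 2 and between FLAG-WT day 10 and K19R day 6. For Aen, FLAG-WT day 0, K19R day 0 and FLAG-WT day 10 overlapped in turn, and for Ccng1 K19R day 6 with FLAG-WT day 10 and K19R day 10 with FLAG-WT day 6.

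Further genes of the pathway were read from lists of named genes, in which Bid and Apaf1 stand on 2 lists. Medians are log2 differences, to be set beside those of all genes given above. Among 10 other p53 targets of cell death, K19R was called higher in 2 and lower in 3 on day 0, 3 and 2 on day 2, 6 and 1 on day 6, and 4 and 4 on day 10. Their medians were -0.20, 0.16, 0.43 and -0.01. Dram1, an autophagy regulator, was at 41.1 and 38.4 CPM in FLAG-WT and 3.83 and 4.36 CPM in K19R on day 2, a difference of -3.28 ± 0.12 (log2), and differed by 0.16 ± 0.09 on day 10. Perp, a membrane protein of desmosomes, was at 211 and 228 CPM in FLAG-WT and 37.0 and 34.2 CPM in K19R on day 10 (-2.62 ± 0.08). Steap3, an endosomal ferrireductase, was higher in K19R on all 4 days, by 0.59 ± 0.10 on day 0 and 1.45 ± 0.17 on day 10. Pidd1, part of a complex that activates caspase-2, was higher on days 2 (0.69 ± 0.10) and 6 (0.98 ± 0.10). Fas, a death receptor, was low, at 2.48 and 3.19 CPM in FLAG-WT and 0.887 and 1.03 CPM in K19R on day 10 (-1.56 ± 0.37). With library totals the counts were 9 higher and 1 lower on day 6, and 5 and 4 on day 10.

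Among 23 targets that stop the cell cycle, repair DNA or act in metabolism, 1 was higher and 2 lower in K19R on day 0, 5 and 4 on day 2, 9 and 8 on day 6, and 3 and 10 on day 10. Their medians were -0.05, 0.14, -0.0016 and -0.19. Cdkn1a gave 86.9 and 96.5 CPM in FLAG-WT on day 0, 47.2 and 47.9 on day 2, 248 and 223 on day 6, and 441 and 418 on day 10. In K19R it gave 61.4 and 63.8, 56.9 and 51.1, 266 and 290.1, and 258 and 254 CPM. It rose with differentiation in both lines and was lower in K19R by 0.55 ± 0.08 (log2) on day 0 and by 0.75 ± 0.07 on day 10. The gene AC167363.2 shares 273 exon bases with Cdkn1a on the other strand and held 690 counts, and the 2 cannot be told apart there without strand. The Cdkn1a day 6 difference of 0.24 ± 0.07 lost its call without FLAG-WT day 6 replicate 2 (adjusted p = 0.143) or K19R day 6 replicate 2 (0.103). Plk3, a stress kinase, was at 158 and 170.0 CPM in FLAG-WT and 31.7 and 34.8 CPM in K19R on day 6 (-2.30 ± 0.12), and differed by -2.42 ± 0.12 on day 10. Gadd45a, a growth arrest gene, differed by -1.45 ± 0.09 and -1.19 ± 0.10 on those days. Higher in K19R were Btg2 on day 2 (1.12 ± 0.10), Tigar on day 6 (0.86 ± 0.10) and Sesn1 on day 10 (1.16 ± 0.14), while Gdf15 and Sesn2 were lower on day 2 (-1.86 ± 0.16 and -0.79 ± 0.07). Rrm2b and Fdxr (-0.69 ± 0.16 and 0.33 ± 0.10 on day 0) lost their calls in most fits that left out a library. With library totals, 15 were higher and 2 lower on day 6, and 8 and 7 on day 10.

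The p53 family and its regulators counted 22 names, of which 21 were tested. In K19R 1 was higher and 1 lower on day 0, 9 and 1 on day 2, 9 and 4 on day 6, and 11 and 6 on day 10, with medians of 0.03, 0.16, 0.13 and 0.25. These counts became 17 and 3 on day 6, and 15 and 4 on day 10, with library totals. Trp73, the p53 relative p73, was at 20.3 and 18.98 CPM in FLAG-WT and 20.5 and 19.6 CPM in K19R on day 0. It was down to 0.264 and 0.270 CPM in FLAG-WT on day 10 but at 2.98 and 1.80 CPM in K19R, a difference of 3.15 ± 0.39 (log2). Trp63 had no counts in both FLAG-WT libraries of day 6 and 0.446 and 0.249 CPM in K19R, at least 2.26-fold higher when FLAG-WT is set to a floor of 3 counts in each library. The list's median was 0.13 with Trp63 at that bound too. Trp63 lies above the median either way, so this was fixed in advance and is not a test. Mdm4, which binds p53 beside Mdm2, ranged from 184 to 305 CPM and was lower in K19R by 0.38 ± 0.07 on day 10, a call lost with library totals. Cdkn2a, whose ARF product blocks Mdm2, was at 68.2 and 73.9 CPM in FLAG-WT and 24.3 and 27.3 CPM in K19R on day 6 (-1.46 ± 0.08), and was lower on day 0 as well (-0.68 ± 0.11). Proteins that steer p53 towards or away from death genes differed too: Ppp1r13b (ASPP1) by -1.24 ± 0.08 on day 6, and Ppp1r13l (iASPP) by 0.98 ± 0.11 on day 2 and -1.36 ± 0.10 on day 10. Sirt1, a deacetylase of p53, was higher by 1.13 ± 0.11 on day 10, and Trp53bp1 by 0.33 ± 0.08 on day 0, a call lost in 3 of 4 fits without 1 library.

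Of 12 further BCL-2 family genes tested, 1 was higher and 2 lower in K19R on day 0, 4 and 3 on day 2, 5 and 5 on day 6, and 5 and 6 on day 10. Medians were -0.02, 0.27, 0.23 and -0.15. Scaled by library totals, 7 were higher and 2 lower on day 6, and 6 and 4 on day 10. Of the pro-survival genes, Bcl2l1 (BCL-XL) was at 150.4 and 167 CPM in FLAG-WT and 96.7 and 100.3 CPM in K19R on day 10 (-0.69 ± 0.07), and was lower on days 2 and 6 as well (-0.29 ± 0.07 and -0.55 ± 0.07). Mcl1, at 208 to 305 CPM on day 10, was higher by 0.35 ± 0.07 on day 2 and lower by 0.45 ± 0.07 on day 6 and by 0.46 ± 0.07 on day 10, and both late calls were lost with library totals. Bcl2 was scarce, at most 3.02 CPM, and higher in K19R on days 6 and 10 (2.19 ± 0.36 and 1.84 ± 0.38). Bcl2l2 was lower on day 2 (-0.87 ± 0.10). Among the death-promoting members, Hrk was at 25.2 and 27.1 CPM in FLAG-WT and 1.39 and 2.68 CPM in K19R on day 2 (-3.69 ± 0.16), and lower on day 6 (-2.01 ± 0.11) and day 10 (-0.76 ± 0.12). Bcl2l11 (Bim) was higher on days 2 and 6 (0.63 ± 0.08 and 0.72 ± 0.08) and lower on day 10 (-0.64 ± 0.08). Bak1, the partner of Bax, was higher on day 2 (0.59 ± 0.08) and lower on day 6 (-0.35 ± 0.08), the latter lost with library totals. Bid was higher on day 10 (0.78 ± 0.10), Bmf too (1.18 ± 0.11), and Bik, at most 2.92 CPM in the FLAG-EED libraries, was lower (-2.07 ± 0.42). Bok was higher on days 2 and 6 (1.51 ± 0.16 and 1.89 ± 0.22). The day 0 calls of Bid, Bak1 and Bok were lost in most fits without 1 library.

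The list of caspases, parts of the apoptosome and caspase regulators held 14 genes. It includes Birc3, Birc5 and Xiap, of the inhibitor of apoptosis family, so its counts mix genes that promote and restrain death. In K19R 1 was higher and 0 lower on day 0, and 5 and 2 on day 2. On day 6 the counts were 7 and 3, and on day 10 they were 7 and 4. Medians were -0.07, 0.15, 0.21 and 0.17. Birc5 (survivin) was lower on day 6 (-0.58 ± 0.07), Birc3 higher on day 10 (1.39 ± 0.23) and Xiap lower (-0.52 ± 0.09). Casp8 was higher on day 0 (0.68 ± 0.16), a call lost without either FLAG-WT replicate 1 or K19R replicate 1 of that day. With library totals 9 were higher and 1 lower on day 6, and 8 and 1 on day 10. Cycling cell markers summed to 2517 and 2632 CPM in K19R and 2048 and 2032 CPM in FLAG-WT on day 6, and their part in these values was not tested.

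**Figure D4:**
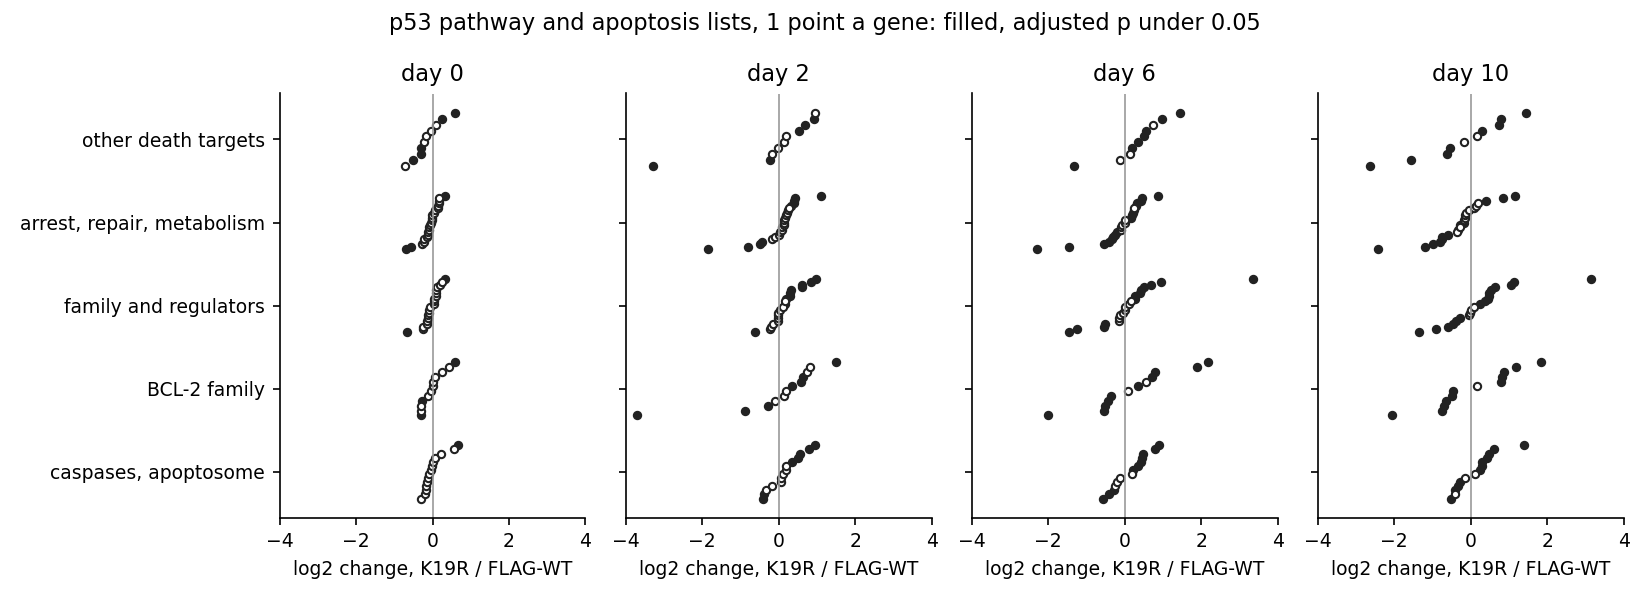
Log2 difference between K19R and FLAG-WT for each gene of the 5 lists on days 0, 2, 6 and 10; filled points passed an adjusted p of 0.05, and Trp63, with a mean under 1 CPM, is not drawn. The points spread from day 0 to day 10 in both directions, with Hrk at -3.69 and Dram1 at -3.28 on day 2 and Trp73 at 3.37 on day 6 and 3.15 on day 10.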

How the data were processed

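RNA was measured in 18 libraries. The deposited counts are whole numbers of read pairs per gene, which the authors made with featureCounts 1.6.3 (FLAG-EED) and 1.6.4 (wildtype) over exons by gene name, on GENCODE vM19 and GRCm38, without a strand option, per the file headers. Reads were trimmed with Trim Galore 0.6.0 and aligned with STAR 2.7.0c, per the submitters' processing notes. Depth was 14190166 to 37375083 pairs a library, and each member held 358 or more counts in every library. The precision of the tests was limited by having 2 libraries a group.

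Genes were filtered with filterByExpr (minimum 10, total 15), scaled by TMM and tested with edgeR 4.0.16 (R 4.3.3), quasi-likelihood, with Benjamini-Hochberg adjustment over all genes. A fit of 16 libraries (19092 genes, 8 residual degrees of freedom) served 13 comparisons, and one of 18 libraries (19296 genes) the wildtype comparison. The scripts were tested on simulated data. DESeq2 1.42.0, RLE size factors, library totals, no filter, only the groups compared, a replicate block and leaving out each library were alternatives. Levels of CPM were computed from the counts. The members and lists were chosen with earlier results of these data known. Genes named were Eed, Cdkn1a, Mdm4, Trp63, Trp73, Bcl2, Bcl2l1, Mcl1, Bak1, Bcl2l11, Bid and a few cell type markers, the 3 largest called changes of each list with a mean of at least 1 CPM, and the 3 genes most like each member. A few genes that this rule names are not reported here. Hrk on day 10 was named after its value was seen.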

Additional observations from a re-analysis of the deposited data

Results flagged for a closer look

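For each of the 7 genes the change from day 0 differed between K19R and FLAG-WT by the interaction test of edgeR on at least 1 day. Over all genes 27.1% were called by day 2, 44.5% by day 6 and 45.0% by day 10. The share of all genes called on at least 1 of these days was not computed. All values are K19R minus FLAG-WT on the log2 scale, and the 3 days share their day 0 libraries. For Trp53 the change in K19R exceeded that in FLAG-WT by 0.54 by day 2 (adjusted p = 5.61e-05), 0.83 by day 6 (4.79e-08) and 1.03 by day 10 (1.41e-09). Pmaip1 went the other way, with -1.04 (6.26e-06), -2.10 (1.38e-11) and -2.70 (1.61e-13). Bbc3 turned from 0.41 by day 2 (adjusted p = 0.0287) to -0.72 by day 6 (6.49e-05) and -1.59 by day 10 (4.96e-10). Mdm2 stood at 0.36 by day 2 (adjusted p = 0.0055) and -0.50 by day 10 (0.000116). Aen turned from 0.53 by day 6 (adjusted p = 0.000131) to -0.41 by day 10 (0.00217). With library totals, Bbc3 by day 6 was -0.34 (adjusted p = 0.0263), and by day 10 Mdm2 (-0.17, 0.141) and Aen (-0.08, 0.532) were no longer called. Bax was at 0.33 by day 2 (adjusted p = 0.0266) and Ccng1 at 0.31 by day 6 (0.0133). These single calls were lost in 7 of 14 alternative fits for Bax and in 3 of 14 for Ccng1. The day 2 call of Bbc3 was lost in 6 of 14.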

How the results depend on the processing

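Of the log2 changes of the 7 genes under all alternatives, 972 kept direction and side of the threshold, 73 lost the call, 14 gained it and 5 reversed. With library totals the reversed values of K19R against FLAG-WT were Bax on day 0 (-0.0092), Mdm2 on day 6 (0.29) and Ccng1 on day 10 (0.14), and the change of the line difference of Ccng1 to day 10 (0.21). Aen on day 0 ranged from -0.0846 to 0.0027 when 1 library was left out, the latter without K19R day 0 replicate 2. On day 0, 2003 genes were called between the lines, 4014 when only those groups were fitted, and 845 to 955 when 1 library was left out, with 0 to 1 members called in place of 2. For the change of the line difference to day 2, 3 to 5 members were called in place of 5. By rank correlation 8 of the 21 nearest genes stayed among the nearest 20. With library totals for levels, 6 of 7 members had the same highest and lowest group. The cause of these shifts was not tested. The labels number the replicates, but same-numbered libraries did not deviate together over all genes (r from -0.0297 to 0.0481 over 28 pairs of groups). A batch that touched few genes or few groups was not tested. With the replicate block, 2 member calls were lost, Ccng1 in K19R against FLAG-WT on day 10 (-0.16, adjusted p = 0.0541) and Trp53 in K19R by day 2 (-0.15, 0.051). With 2 libraries a group, leaving one out assumes that the lone library varies like the other groups.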

Other observations

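From day 0 to day 10, 77.9% of all genes were called in FLAG-WT (37.0% higher, 40.9% lower) and 73.9% in K19R (38.1%, 35.8%), and the lists that follow are to be read against those shares. Of 12 BCL-2 family genes tested beside the members, 8 rose and 2 fell in FLAG-WT (6 and 4 with library totals), and 9 rose and 2 fell in K19R (9 and 2), with median log2 changes of 1.23 and 1.07. Hrk, a BH3-only activator of neuronal death, rose by 5.10 ± 0.18 (log2) in FLAG-WT and 4.38 ± 0.19 in K19R, and Bcl2l11 by 1.96 ± 0.08 in FLAG-WT. Of the 14 genes of caspases, apoptosome and caspase regulators, 3 rose and 8 fell in FLAG-WT (3 and 11 with library totals). In K19R 5 rose and 7 fell (4 and 7). The medians were -0.31 in FLAG-WT and -0.32 in K19R. Casp8, the initiator of the death receptor route, rose by 2.55 ± 0.14 and 2.29 ± 0.13, and Casp6 by 1.31 ± 0.13 and 1.19 ± 0.13. The medians of all genes were -0.12 in FLAG-WT and 0.0080 in K19R.

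Among other p53 death targets, Dram1 rose by 5.85 ± 0.16 in FLAG-WT and 6.25 ± 0.16 in K19R, while Steap3 changed by -3.69 ± 0.15 and -2.84 ± 0.12. Of the arrest, repair and metabolic targets, 14 of 23 rose and 6 fell in each line, but 11 and 9 in FLAG-WT and 13 and 6 in K19R with library totals. Gadd45a rose by 3.42 ± 0.11 and 2.24 ± 0.12, while the changes of Tigar were -3.28 ± 0.09 and -2.62 ± 0.08 and those of Sesn1 -3.30 ± 0.12 and -2.29 ± 0.11. Cdkn2a rose by 2.88 ± 0.09 and 2.96 ± 0.10, and Trp73 changed by -6.17 ± 0.28 and -3.06 ± 0.18.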
